A study of Homo sapiens with 12 samples.

Results

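Replication-dependent histone genes were followed in MD901 cells with short hairpin RNAs against CREBBP. MD901 is a human line of germinal centre type diffuse large B-cell lymphoma, and series information describes it as CREBBP wild type. CREBBP encodes an acetyltransferase of histones. The members were all rows of the RNA table whose names begin with HIST1H, HIST2H, HIST3H or HIST4H and whose mean over the 12 libraries was at least 0.5 FPKM. FPKM is a level scaled to transcript length and to the size of the library. That level kept 36 of 60 histone rows, out of 24181 rows in the table. A row is a locus assembled by the authors, and it may carry the names of several genes: 27 member rows carried 1 histone name and 9 carried 2 or more, for 49 names in all. By name, 4 rows were of the linker histone H1, 6 of H2A, 8 of H2B, 3 of H3 and 9 of H4, and 6 rows carried names of more than 1 class. The groups, named by hairpin, were cells with shCREBBP.1027, cells with shCREBBP.3753, cells with shCREBBP.572 and cells with a scramble hairpin, with 3 libraries each. All cells grew in IMDM medium with 10% serum, and total RNA longer than 200 nt was sequenced after removal of ribosomal RNA, in stranded libraries. The vector, the time after its delivery and whether cells were cloned or pooled are not stated in the labels used here, nor whether libraries came from separate cultures, so the p-values below measure only the spread between these libraries.

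A dividing cell must wrap its newly made DNA in histones, and the replication-dependent histone genes supply them during S phase. They are small, mostly without introns, lie in clusters, and their mRNAs end in a conserved stem-loop in place of a poly(A) tail. The stem-loop is bound by SLBP, and the mRNAs are made and cut in nuclear bodies that hold NPAT, the U7 snRNP with LSM10 and LSM11, and the nuclease CPSF3. H2A, H2B, H3 and H4 form the nucleosome core, and H1 binds the DNA that enters and leaves it. Libraries made by removal of ribosomal RNA keep mRNAs without a poly(A) tail, and the histone rows were among the most abundant here.

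The stem-loop is shown because it sets these mRNAs apart from other mRNAs. GENCODE v29 transcripts (GRCh38) were searched for a stem of 6 base pairs around a loop of 4 bases. It was found after the stop codon in 20 of the 49 names. Pairs of G with T were allowed, and the stem of HIST1H2AG holds such a pair. The other 29 were not matched, among them genes whose annotated transcripts end near the stop codon. The capitals mark the stem-loop, and lower case marks up to 5 bases on each side. The examples are on the plus strand at chr6:27810516-27810531 (HIST1H3H), chr6:27133515-27133530 (HIST1H2AG) and chr6:27139654-27139669 (HIST1H4I), and on the minus strand at chr6:26270923-26270938 (HIST1H3G), chr12:14770724-14770739 (HIST4H4) and chr11:119094898-119094913 (H2AFX).
HIST1H3H: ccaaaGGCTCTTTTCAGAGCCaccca
HIST1H3G: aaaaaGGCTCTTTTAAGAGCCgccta
HIST1H2AG: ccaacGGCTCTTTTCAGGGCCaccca
HIST4H4: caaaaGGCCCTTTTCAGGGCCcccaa
HIST1H4I: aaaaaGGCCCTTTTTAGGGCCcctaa
H2AFX: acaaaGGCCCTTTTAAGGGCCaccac
The 20 names held 5 distinct stem-loops. That of HIST1H3H stood in 9 genes, of H2A, H2B and H3, and that of HIST1H3G in 4, of H2B and H3. That of HIST4H4 stood in 5 genes, all of H4, and the other H4 gene with a match was HIST1H4I. H2AFX is no member by its name: it encodes the H2A.X form of DNA repair. It has been described with both a stem-loop and a polyadenylated transcript, and its stem-loop here was followed by 821 further bases of the annotated transcript. Among the members, 16 names had an annotated transcript that ran more than 50 bases past the stem-loop.

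Promoters are shown for rows whose patterns across the hairpins differ below. RefSeq (GRCh38.p14) matched all 49 names, and 44 had a promoter in its table. Each line gives the 150 bases before the annotated start, read along the gene, at chr6:26234988-26235137 (HIST1H1D, minus strand), chr6:27867589-27867738 (HIST1H1B, minus strand), chr12:14771132-14771281 (HIST4H4, minus strand), chr6:26189113-26189262 (HIST1H4D, minus strand) and chr6:27814872-27815021 (HIST1H2BM, plus strand). Capitals mark exact matches on either strand to the TATA box in the form TATAAA, to the CCAAT box that NF-Y binds, to ATTTGCAT, the octamer of the OCT factors, and to the H1 box in the form AAACACA.
HIST1H1D: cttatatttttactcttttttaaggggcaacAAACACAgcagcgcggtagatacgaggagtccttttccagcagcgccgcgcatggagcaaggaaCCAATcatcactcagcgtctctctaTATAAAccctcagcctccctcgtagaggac
HIST1H1B: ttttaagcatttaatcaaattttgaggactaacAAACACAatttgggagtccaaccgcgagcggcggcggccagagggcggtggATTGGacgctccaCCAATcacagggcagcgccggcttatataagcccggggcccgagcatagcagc
HIST4H4: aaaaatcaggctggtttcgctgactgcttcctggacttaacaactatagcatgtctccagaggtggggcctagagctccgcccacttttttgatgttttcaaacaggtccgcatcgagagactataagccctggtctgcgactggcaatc
HIST1H4D: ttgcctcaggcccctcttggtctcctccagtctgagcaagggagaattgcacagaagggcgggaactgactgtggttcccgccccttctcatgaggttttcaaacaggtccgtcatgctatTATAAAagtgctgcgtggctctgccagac
HIST1H2BM: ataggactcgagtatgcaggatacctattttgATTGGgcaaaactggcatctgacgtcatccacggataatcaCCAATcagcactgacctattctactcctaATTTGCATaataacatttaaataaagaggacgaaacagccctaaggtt
HIST1H1D and HIST1H1B share an H1 box, 119 and 117 bases before the start, and a CCAAT box on the plus strand, 55 and 53 bases before it. HIST1H4D holds a TATA box 29 bases before its start, and the 150 bases of HIST4H4 hold none of these words. The octamer of HIST1H2BM lies 48 bases before the start. Over the whole table window of 250 bases before to 50 after the start, the words followed the classes. The H1 box was in 5 of 5 H1 promoters and in 0 of the 39 others, against 1573 of all 27305 promoters in the table (5.76%). The octamer was in 8 of 10 H2A, 11 of 14 H2B, 1 of 6 H3 and 0 H1 or H4 promoters, against 492 of all promoters. Many of these windows are not separate: 8 pairs of an H2A and an H2B gene share 253 to 293 of their 300 bases, and the 1 H3 match is in the first window listed for HIST1H3D, which is also that of HIST1H2AD. CCAAT was in each H1, H2A, H2B and H3 promoter and in 2 of 9 H4 promoters, against 35.7% of all, and TATAAA was in 28 of 44, against 3264 of all. These are matches of letters in a window and not measured sites, and in the printed sequences no match overlaps another.

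Of the members, 35 rows lay in the HIST1 clusters of chromosome 6 and 1 row, HIST4H4, on chromosome 12. Coordinates given with values below are locus intervals from the table (hg19), 19 in all, and they are wider than the genes. The median of the members' means was 948 FPKM, against 8.86 FPKM over the 13327 rows that reached a mean of 0.5 FPKM, and 17 members were among the 100 rows with the highest mean. The highest, at 4955 FPKM, carried HIST1H1E, HIST1H2AE, HIST1H2BD, HIST1H2BE, HIST1H2BF, HIST1H2BH and HIST1H2BI. HIST1H2AE also stands alone on another row of the same interval. Histone genes of a class can be alike in stretches of their coding parts, so reads can be divided between rows. Class sums are less exposed to that division than single rows. The table gives no read numbers, so the counting error of a value is unknown.

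Some libraries stood apart. The scramble libraries spread more than the others: over 35 members (HIST1H1T, near 0, left out) the median coefficient of variation was 11.1%, 4.45% and 5.03% in shCREBBP.1027, in shCREBBP.3753 and in shCREBBP.572, and 21.0% in scramble. Scramble replicate 1 was the lowest of its group in 35 of 36 members, and shCREBBP.1027 replicate 1 in 32. Scramble replicate 3 had a total of 4978528 FPKM, against 538076 to 722976 FPKM in the other libraries, while its upper quartile over tested rows was 24.3 FPKM, at the top of the range of 21.6 to 24.3 FPKM. CREBBP itself, the target, held 11.4, 11.7 and 12.6 FPKM in the libraries labelled shCREBBP.1027, 5.92, 6.16 and 6.10 FPKM in those labelled shCREBBP.3753, 7.99, 7.53 and 6.91 FPKM in those labelled shCREBBP.572, and 13.7, 7.10 and 5.82 FPKM in scramble. Against scramble it was not called with any hairpin (log2 differences of 0.47, -0.40 and -0.14), but it was called higher with shCREBBP.1027 without scramble replicate 1 (0.80, limma adjusted p = 1.1e-04) and lower with shCREBBP.3753 without scramble replicate 3 (-0.63, limma adjusted p = 0.0465), so the directions below are those of libraries so labelled and not of a measured loss of CREBBP. Markers of B cells were present, with summed levels of 168 to 341 FPKM over 6 genes per library, of which CD22 was at most 0.129 FPKM, and 4 T-cell markers, with CD3D listed at 0 in every library, summed to at most 0.963 FPKM. Sums over 3 myeloid markers were at most 3.26 FPKM. Sums over EPCAM, KRT8 and COL1A1, markers of epithelium and fibroblasts, were 0.713 to 1.11, 0.649 to 0.997 and 0.972 to 2.21 FPKM in shCREBBP.1027, in shCREBBP.3753 and in shCREBBP.572, and 0.991 to 7.70 FPKM in scramble, where scramble replicate 3 alone listed COL1A1 above 0 (6.85 FPKM); EPCAM was listed at 0 throughout.

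Histone RNA was lower with shCREBBP.1027 and with shCREBBP.3753 than in scramble, and lay within the scramble range with shCREBBP.572. Summed over the 36 rows, it was 27002, 31813 and 31534 FPKM with shCREBBP.1027, 26472, 26844 and 26639 FPKM with shCREBBP.3753, 58907, 58227 and 55614 FPKM with shCREBBP.572, and 40316, 57986 and 59408 FPKM in scramble. Each library with shCREBBP.1027 or shCREBBP.3753 was below each scramble library, and the libraries with shCREBBP.572 lay within the scramble range. As ratios of group means to scramble, the sums were 0.573, 0.507 and 1.10 in shCREBBP.1027, in shCREBBP.3753 and in shCREBBP.572, and 0.513, 0.454 and 0.981 when scramble replicate 1 was left out. In bulk RNA, fewer cells in S phase and less histone RNA per cell cannot be told apart.

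Every class was lower with shCREBBP.1027 and shCREBBP.3753 in these sums. Linker histone H1 rows summed to 0.535, 0.528 and 1.02 of scramble in shCREBBP.1027, in shCREBBP.3753 and in shCREBBP.572, and H2A rows to 0.565, 0.488 and 1.07. For H2B rows the ratios were 0.649, 0.554 and 1.16, the highest of any class with shCREBBP.1027. For H3 rows they were 0.540, 0.418 and 0.965, the lowest of any class with shCREBBP.3753. H4 rows had 0.570, 0.560 and 1.16, and rows of mixed class 0.546, 0.483 and 1.10. The mixed rows carry names of H1, H2A, H2B, H3 and H4, so the sum of each class leaves out some of its genes. Shares of the pool moved by a few percentage points: H3 rows held 9.15 ± 0.09%, 8.0 ± 0.22%, 8.54 ± 0.42% and 9.73 ± 0.36% (SD, n = 3) of the summed histone FPKM in shCREBBP.1027, in shCREBBP.3753, in shCREBBP.572 and in scramble. H2B rows held 22.5 ± 0.17%, 21.7 ± 0.06%, 21.0 ± 0.64% and 19.8 ± 0.50% in the same order. H3 libraries with each hairpin, and H2B libraries with each hairpin, did not overlap those of scramble in these shares. Shares of the mixed rows did not overlap scramble with shCREBBP.1027 or shCREBBP.3753, and those of H1 rows did not with shCREBBP.572. H2A shares overlapped scramble with each hairpin. H4 shares were 15.5 ± 0.93%, 17.3 ± 0.38%, 16.6 ± 0.55% and 15.5 ± 1.02%, and libraries with shCREBBP.1027 and with shCREBBP.572 overlapped those of scramble.

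**Figure D1:**
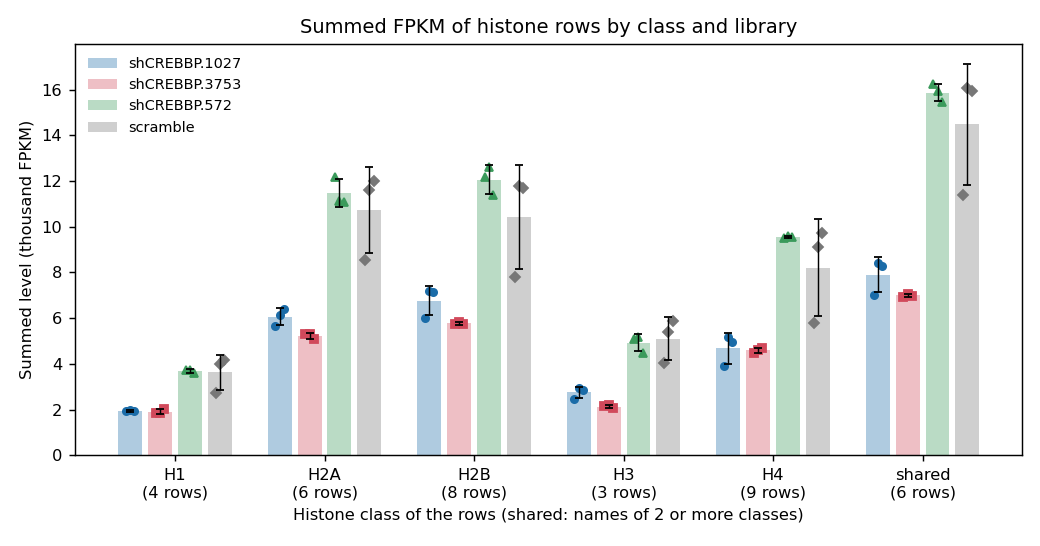
Summed FPKM of the histone rows of each class, with bars for the mean of 3 libraries, points for single libraries and error bars for the SD, in the order shCREBBP.1027, shCREBBP.3753, shCREBBP.572 and scramble. In each class both the shCREBBP.1027 and the shCREBBP.3753 bars stand below the scramble bar, and scramble replicate 1 is the low scramble point.

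Row by row, differences were tested on log2(FPKM + 1) with limma over all 13327 rows, with p-values adjusted by the Benjamini-Hochberg method and a threshold of 0.05. Such a difference understates the change of rows with low values, which matters for HIST1H1T and little for the abundant rows. The fit holds 1 spread per row for all 4 groups, though scramble spread more than the hairpin groups. A ± value after a difference is its SE. With shCREBBP.1027, 33 of 36 members were lower than in scramble and 0 higher, where 20.2% of all tested rows were lower and 15.3% higher (35.5% in either direction). With shCREBBP.3753, 33 were again lower and 0 higher, against 11.6% and 14.2% of all rows (25.8% in either direction). With shCREBBP.572, 2 were lower and 0 higher, against 9.42% and 7.65% of all rows (17.1% in either direction). The median difference of the members was -0.82, -0.92 and 0.16 in shCREBBP.1027, in shCREBBP.3753 and in shCREBBP.572, beside -0.02, 0.02 and 0.01 over all tested rows. These 3 comparisons share their scramble libraries, so they are not independent of each other. The groups did not overlap in 29, 33 and 9 of the 36 members in the same order, against 44.1%, 40.2% and 29.9% of all tested rows, so the count with shCREBBP.572 was near that of all rows. For a single row, the exact two-sided permutation test of 3 libraries against 3 cannot give less than p = 0.1.

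Between hairpins the differences use no scramble library, but their SE and p-values rest on a spread estimated over all 12 libraries, scramble included. Each hairpin's libraries enter 2 of the 3 comparisons. With shCREBBP.572, 33 members were higher and 0 lower than with shCREBBP.1027, against 21.2% and 16.4% of all rows (37.6% in either direction), with a median difference of 0.88. Compared with shCREBBP.3753, 31 members were higher with shCREBBP.572 and 0 lower, against 12.8% and 15.8% of all rows (28.6% in either direction), with a median of 1.09. Between shCREBBP.3753 and shCREBBP.1027, 2 members were higher and 5 lower with shCREBBP.3753, against 22.5% and 14.2% of all rows (36.8% in either direction), with a median of -0.13. That median was -0.37 with quantile normalization and -0.25 with upper quartile scaling, where 21 and 11 members were lower. In the main fit 13.9% of members were lower, near the share of all rows, and 5.56% were higher, below that share. The medians over all rows were 0.02, -0.003 and 0.02 in these 3 comparisons. Rows with 1 histone name and rows with 2 or more gave like medians, -0.79 and -0.86 with shCREBBP.1027 and -0.84 and -1.06 with shCREBBP.3753, over 27 and 9 rows.

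**Figure D2:**
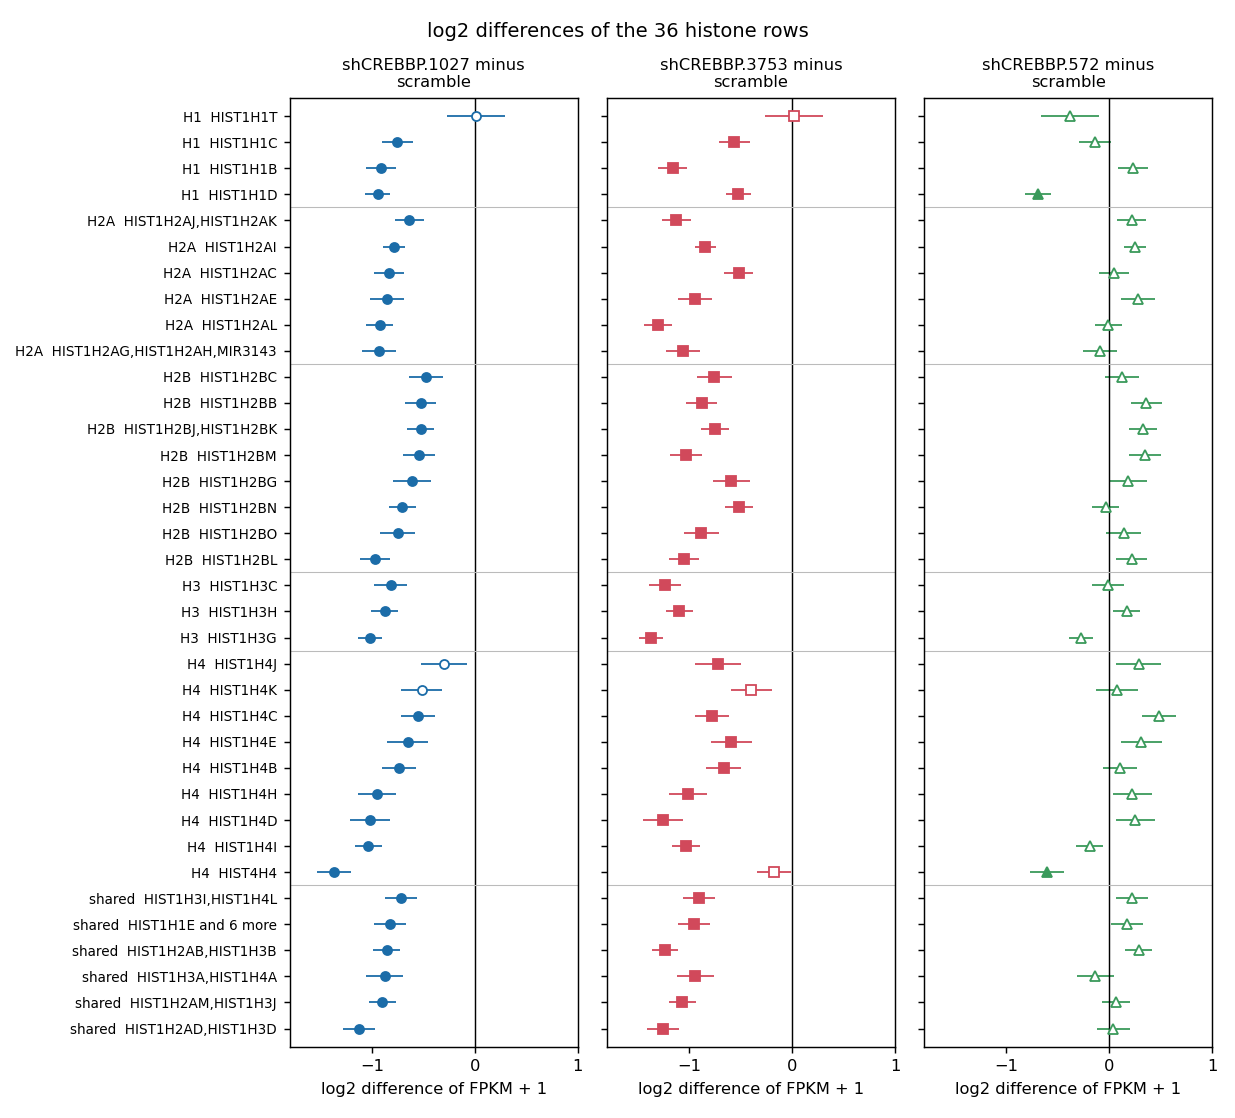
Differences from scramble on the log2(FPKM + 1) scale for the 36 histone rows, by class, with each of the 3 hairpins; lines are the SE, filled symbols passed the limma threshold and open symbols did not. With shCREBBP.1027 and shCREBBP.3753 the symbols stand left of 0 except for HIST1H1T, and with shCREBBP.572 they scatter around 0, with HIST1H1D and HIST4H4 filled.

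The linker histones did not all follow the same order across the hairpins. HIST1H1B, which encodes H1.5 (27833058 to 27835585), held 1206, 1187 and 1151 FPKM with shCREBBP.1027, 958, 968 and 1066 FPKM with shCREBBP.3753, 2652, 2615 and 2562 FPKM with shCREBBP.572, and 1718, 2477 and 2592 FPKM in scramble. Both low groups lay below every scramble library, and the shCREBBP.572 libraries overlapped scramble. The differences were -0.91 ± 0.14 (limma adjusted p = 5.3e-04) with shCREBBP.1027 and -1.16 ± 0.14 (limma adjusted p = 2.3e-04) with shCREBBP.3753, and 0.23 ± 0.14 with shCREBBP.572, not called. HIST1H1C, which encodes H1.2 (26054191 to 26056931), held 485, 537 and 512 FPKM with shCREBBP.1027, 574, 571.97 and 605 FPKM with shCREBBP.3753, 798, 820 and 730 FPKM with shCREBBP.572, and 635, 988 and 1019 FPKM in scramble. It was lower with shCREBBP.1027 and shCREBBP.3753, with differences of -0.75 ± 0.15 (limma adjusted p = 0.00282) and -0.56 ± 0.15 (limma adjusted p = 0.0197). The call with shCREBBP.3753 ended without replicate 1 or 2 of that hairpin or scramble replicate 2 or 3 (limma adjusted p of 0.0601 to 0.0674), and without scramble replicate 1 HIST1H1C was also called lower with shCREBBP.572 (-0.36). HIST1H1D, which encodes H1.3 (26156439 to 26275198), held 235, 252 and 256 FPKM with shCREBBP.1027, 318, 317 and 361 FPKM with shCREBBP.3753, 284, 306 and 295 FPKM with shCREBBP.572, and 379, 523 and 546 FPKM in scramble. All hairpin libraries were below all scramble libraries, with shCREBBP.1027 lowest and shCREBBP.3753 highest of the hairpin groups. Its differences from scramble were -0.94 ± 0.12 (limma adjusted p = 1.7e-04) with shCREBBP.1027, -0.52 ± 0.12 (limma adjusted p = 0.00971) with shCREBBP.3753 and -0.69 ± 0.12 (limma adjusted p = 0.00296) with shCREBBP.572. It was the only H1 row called lower with shCREBBP.572, and it was higher with shCREBBP.3753 than with shCREBBP.1027 by 0.42 ± 0.12 (limma adjusted p = 0.0198), a call that ended without shCREBBP.1027 replicate 1 (0.0703) or shCREBBP.3753 replicate 3 (0.0781). With the shCREBBP.572 and scramble groups fitted alone, its adjusted p was 0.0531, and with the shCREBBP.3753 and scramble groups alone 0.0795, so HIST1H1D was called in neither. HIST1H1E shares its row with 6 other names and has no level of its own here.

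H2A rows fell in 6 of 6 cases with both shCREBBP.1027 and shCREBBP.3753. HIST1H2AE (26156439 to 26275198), a core histone H2A gene, held 741, 884 and 802 FPKM with shCREBBP.1027, 784, 793 and 698 FPKM with shCREBBP.3753, 1798, 1800 and 1736 FPKM with shCREBBP.572, and 1066, 1726 and 1694 FPKM in scramble on the row that carries its name alone. HIST1H2AI (27774083 to 27777338) held 586, 699 and 610 FPKM with shCREBBP.1027, 587, 591 and 645 FPKM with shCREBBP.3753, 1273, 1288 and 1322 FPKM with shCREBBP.572, and 944, 1173 and 1167 FPKM in scramble. In both rows the shCREBBP.1027 and shCREBBP.3753 libraries lay in like ranges below scramble, and the shCREBBP.572 libraries lay above every scramble library. HIST1H2AE differed from scramble by -0.86 ± 0.16 (limma adjusted p = 0.00205) with shCREBBP.1027 and -0.95 ± 0.16 (limma adjusted p = 0.00187) with shCREBBP.3753, and HIST1H2AI by -0.79 ± 0.11 and -0.84 ± 0.11. Their differences with shCREBBP.572, 0.28 ± 0.16 and 0.25 ± 0.11, were not called, though HIST1H2AI was with quantile normalization (limma adjusted p = 0.0473) and upper quartile scaling (0.0183). HIST1H2AL (27833058 to 27835585) held 515, 524 and 564 FPKM with shCREBBP.1027, 431, 417 and 384 FPKM with shCREBBP.3753, 1135, 1081 and 835 FPKM with shCREBBP.572, and 867, 1055 and 1142 FPKM in scramble. It was among the 3 largest falls with shCREBBP.3753, at -1.30 ± 0.13 (limma adjusted p = 7.3e-05), beside -0.92 ± 0.13 (limma adjusted p = 3.1e-04) with shCREBBP.1027, and it was lower with shCREBBP.3753 than with shCREBBP.1027, with a difference of -0.38 ± 0.13 (limma adjusted p = 0.0429), a call that ended with the replicate number as a block (limma adjusted p = 0.0623). The row of HIST1H2AJ and HIST1H2AK (27780317 to 27808042) held 1753, 2090 and 2039 FPKM with shCREBBP.1027, 1381, 1407 and 1388 FPKM with shCREBBP.3753, 3419, 3464 and 3725 FPKM with shCREBBP.572, and 2429, 3378 and 3427 FPKM in scramble. Here too shCREBBP.3753 was below shCREBBP.1027, with a difference of -0.49 ± 0.14 (limma adjusted p = 0.0191), the largest such fall of any member.

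H2B rows also fell in 8 of 8 cases with these hairpins, with the smallest median among the classes with shCREBBP.1027, -0.58. HIST1H2BC (26122232 to 26139730) held 1446, 1625 and 1566 FPKM with shCREBBP.1027, 1300, 1297 and 1222 FPKM with shCREBBP.3753, 2378, 2389 and 2245 FPKM with shCREBBP.572, and 1558, 2460 and 2586 FPKM in scramble. The highest shCREBBP.1027 library overlapped the lowest scramble library, and the adjusted p was the largest of the 33 calls with that hairpin, at -0.48 ± 0.17 (limma adjusted p = 0.0445). With shCREBBP.3753 the groups were apart, at -0.76 ± 0.17 (limma adjusted p = 0.00714). HIST1H2BM (27780317 to 27808042) held 1170, 1394 and 1470 FPKM with shCREBBP.1027, 938, 961 and 964 FPKM with shCREBBP.3753, 2501, 2716 and 2252 FPKM with shCREBBP.572, and 1519, 2332 and 2084 FPKM in scramble. The shCREBBP.3753 libraries were the lowest, below each shCREBBP.1027 library, and the difference between these hairpins was -0.49 ± 0.16 (limma adjusted p = 0.0302). From scramble HIST1H2BM differed by -0.54 ± 0.16 (limma adjusted p = 0.0194) with shCREBBP.1027 and -1.03 ± 0.16 (limma adjusted p = 9.0e-04) with shCREBBP.3753. The calls with shCREBBP.1027 ended for HIST1H2BC without any library of its 2 groups but scramble replicate 1 (limma adjusted p of 0.0756 to 0.156), and for HIST1H2BM without shCREBBP.1027 replicate 1 or scramble replicate 2 or 3 (0.0647 to 0.0797).

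H3 rows had the largest falls of a class with shCREBBP.3753, with a median of -1.24 over 3 rows. HIST1H3C (26043261 to 26046964) held 1508, 1825 and 1818 FPKM with shCREBBP.1027, 1317, 1351 and 1186 FPKM with shCREBBP.3753, 3064, 3160 and 2767 FPKM with shCREBBP.572, and 2362, 3262 and 3580 FPKM in scramble. HIST1H3G (26156439 to 26275198) held 521, 632 and 580 FPKM with shCREBBP.1027, 432, 457 and 465 FPKM with shCREBBP.3753, 1029, 1016 and 865 FPKM with shCREBBP.572, and 1006, 1224 and 1293 FPKM in scramble. Both rows ran in the order shCREBBP.3753, shCREBBP.1027, then the other groups, with no overlap between these 2 hairpins. HIST1H3G had the largest fall of any member with shCREBBP.3753, -1.37 ± 0.12 (limma adjusted p = 2.9e-05), beside -1.02 ± 0.12 (limma adjusted p = 6.8e-05) with shCREBBP.1027, and the difference between these hairpins was -0.35 ± 0.12 (limma adjusted p = 0.0346). HIST1H3C differed from scramble by -0.82 ± 0.16 (limma adjusted p = 0.002) with shCREBBP.1027 and -1.24 ± 0.16 (limma adjusted p = 2.9e-04) with shCREBBP.3753, and its difference between them, -0.42 ± 0.16, was not called, though it was with quantile normalization (-0.66), upper quartile scaling (-0.54), array weights, 2 groups alone and a filter at a mean of 1 FPKM (limma adjusted p of 1.2e-04 to 0.0489). With shCREBBP.572 neither row was called, at -0.01 ± 0.16 for HIST1H3C and -0.27 ± 0.12 for HIST1H3G, which was called without scramble replicate 1 (-0.38, limma adjusted p = 0.0179). The 5 calls lower with shCREBBP.3753 than with shCREBBP.1027 (HIST1H2AL, HIST1H2BM, HIST1H3G and the rows of HIST1H2AJ with HIST1H2AK and HIST1H2AB with HIST1H3B) ended when any library of these groups other than shCREBBP.1027 replicate 1 was left out. Without that library HIST1H2AL lost its call and the other 4 rows kept theirs.

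H4 rows fell in 7 of 9 cases with each of shCREBBP.1027 and shCREBBP.3753. HIST1H4K was called with neither, HIST1H4J was not called with shCREBBP.1027, and HIST4H4 was not called with shCREBBP.3753. HIST1H4E (26156439 to 26275198) held 1283, 1834 and 1647 FPKM with shCREBBP.1027, 1647, 1602 and 1676 FPKM with shCREBBP.3753, 3014, 3077 and 3107 FPKM with shCREBBP.572, and 1740, 2919 and 2980 FPKM in scramble. HIST1H4C (26104176 to 26104565) held 881, 1102 and 1108 FPKM with shCREBBP.1027, 815, 881 and 940 FPKM with shCREBBP.3753, 2026, 2103 and 2175 FPKM with shCREBBP.572, and 1128, 1650 and 1819 FPKM in scramble. In HIST1H4E the highest shCREBBP.1027 library passed the lowest scramble library, and in HIST1H4C the libraries with shCREBBP.572 were above every scramble library. HIST1H4E differed by -0.65 ± 0.20 (limma adjusted p = 0.0239) with shCREBBP.1027 and -0.59 ± 0.20 (limma adjusted p = 0.0481) with shCREBBP.3753, and HIST1H4C by -0.55 ± 0.17 and -0.77 ± 0.17. The difference of HIST1H4C from scramble with shCREBBP.572, 0.48 ± 0.17, was the highest of the members and was not called (limma adjusted p = 0.0691), though it was called without scramble replicate 3 (0.62) and with the replicate number as a block (limma adjusted p = 0.0261). It was also called with quantile normalization (0.40, limma adjusted p = 0.00166) and with upper quartile scaling (0.51, limma adjusted p = 0.0183). The calls of HIST1H4C and HIST1H4E with shCREBBP.1027 ended without shCREBBP.1027 replicate 1 or scramble replicate 2 or 3, that of HIST1H4E also without shCREBBP.1027 replicate 3 (limma adjusted p of 0.0513 to 0.0982 over both). The call of HIST1H4E with shCREBBP.3753 ended without any library of its 2 groups but scramble replicate 1 (0.106 to 0.147). HIST1H4I (27093599 to 27115765) held 222, 271 and 270 FPKM with shCREBBP.1027, 279, 265 and 221 FPKM with shCREBBP.3753, 460, 457 and 450 FPKM with shCREBBP.572, and 425, 562 and 589 FPKM in scramble, and HIST1H4D (26156439 to 26275198) held 613, 786 and 807 FPKM with shCREBBP.1027, 589, 646 and 631 FPKM with shCREBBP.3753, 1805, 1792 and 1702 FPKM with shCREBBP.572, and 1028, 1684 and 1878 FPKM in scramble. HIST1H4I was among the 3 largest falls with shCREBBP.1027, at -1.04 ± 0.13 (limma adjusted p = 1.5e-04), and HIST1H4D had the largest difference of shCREBBP.572 over shCREBBP.1027, 1.27 ± 0.19 (limma adjusted p = 4.0e-04). Without scramble replicate 1, HIST1H4I was also called lower with shCREBBP.572 (-0.34, limma adjusted p = 0.0471).

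HIST4H4 (chromosome 12, 14917445 to 14924107), the H4 gene outside the chromosome 6 clusters, followed another order. It held 96.7, 127 and 119 FPKM with shCREBBP.1027, 265, 259 and 260 FPKM with shCREBBP.3753, 198, 206 and 178 FPKM with shCREBBP.572, and 218, 329 and 359 FPKM in scramble. The shCREBBP.1027 libraries were lowest and well apart from all others, the shCREBBP.572 libraries came next, and the shCREBBP.3753 libraries lay within the scramble range. The difference with shCREBBP.1027, -1.37 ± 0.16 (limma adjusted p = 9.0e-05), was the largest fall of any member with that hairpin, while that with shCREBBP.3753, -0.18 ± 0.16 (limma adjusted p = 0.462), was not called. With shCREBBP.572 it was -0.60 ± 0.16 (limma adjusted p = 0.0266). HIST4H4 was higher with shCREBBP.3753 than with shCREBBP.1027 by 1.20 ± 0.16 (limma adjusted p = 2.0e-04), and higher with shCREBBP.572 than with shCREBBP.1027 by 0.77 ± 0.16 (limma adjusted p = 0.00344). The call with shCREBBP.572 ended without any 1 of the 3 shCREBBP.572 libraries, without scramble replicate 2 or 3, with no filter and with the 2 groups fitted alone, where adjusted p reached 0.133. With shCREBBP.3753, HIST4H4 was called lower without scramble replicate 1 (-0.40, limma adjusted p = 0.0195).

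**Figure D3:**
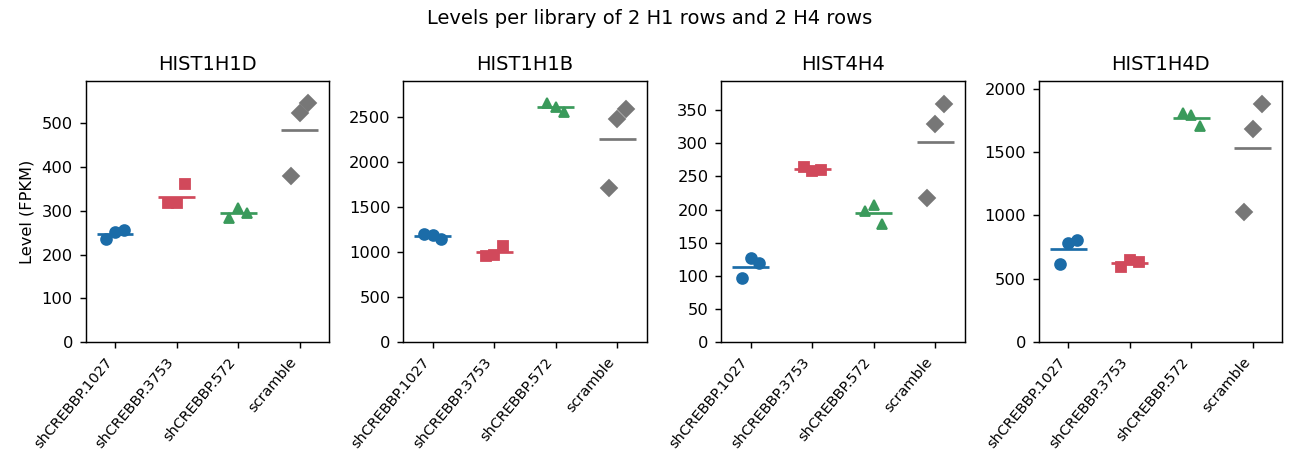
Level in FPKM of 2 H1 rows (HIST1H1D and HIST1H1B) and 2 H4 rows (HIST4H4 and HIST1H4D) in every library, with lines at the mean of 3, on axes that start at 0. HIST1H1B and HIST1H4D overlap scramble with shCREBBP.572 and lie below it with the other hairpins. HIST1H1D lies below scramble with each hairpin, and HIST4H4 is lowest with shCREBBP.1027.

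Set against the other histone rows of the same library, the same rows stood out. Taken as the log2 level relative to the median member of the library, the group means of HIST4H4 were -2.52, -1.19, -2.83 and -2.07 in shCREBBP.1027, in shCREBBP.3753, in shCREBBP.572 and in scramble, a range of 1.64. Those of HIST1H1D were -1.40, -0.85, -2.23 and -1.38, a range of 1.38. HIST1H1C came next with a range of 0.79, then HIST1H4K with 0.74, while HIST1H3H varied least, between -0.59 and -0.50. HIST1H1D thus kept its place among the members with shCREBBP.1027 and stood lower among them with shCREBBP.572. These are descriptions with no test, and reads that other histone genes share with these rows would enter them.

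Rows with names of several classes lay in the same range as the rest. They fell in 6 of 6 cases with each of shCREBBP.1027 and shCREBBP.3753, with differences of -1.13 to -0.72 and of -1.26 to -0.91. The row of HIST1H2AD and HIST1H3D (26156439 to 26275198) held 588, 763 and 751 FPKM with shCREBBP.1027, 665, 658 and 592 FPKM with shCREBBP.3753, 1643, 1612 and 1454 FPKM with shCREBBP.572, and 1197, 1622 and 1823 FPKM in scramble. It was among the 3 largest falls with both hairpins, at -1.13 ± 0.16 (limma adjusted p = 2.4e-04) with shCREBBP.1027 and -1.26 ± 0.16 (limma adjusted p = 2.5e-04) with shCREBBP.3753. The row of HIST1H2AB and HIST1H3B (26030669 to 26033875) held 983, 1265 and 1167 FPKM with shCREBBP.1027, 884, 899 and 833 FPKM with shCREBBP.3753, 2534, 2612 and 2365 FPKM with shCREBBP.572, and 1728, 2265 and 2207 FPKM in scramble. It had the largest difference of shCREBBP.572 over shCREBBP.3753, 1.52 ± 0.13 (limma adjusted p = 1.2e-05), and its shCREBBP.572 libraries were above every scramble library, without a call (0.29 ± 0.13; 0.31 with upper quartile scaling, limma adjusted p = 0.049). The highest row, of 7 names, had 3244, 3561 and 3627 FPKM with shCREBBP.1027, 3077, 3124 and 3326 FPKM with shCREBBP.3753, 6952, 6832 and 6991 FPKM with shCREBBP.572, and 4861, 7276 and 6586 FPKM in scramble.

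At the edge of the level that defined the members were rows of little RNA. HIST1H1T, the H1 of the testis, was just inside with a mean of 0.538 FPKM. It held 0.883, 0.830 and 0.210 FPKM with shCREBBP.1027, 0.490, 0.860 and 0.533 FPKM with shCREBBP.3753, 0, 0.429 and 0.291 FPKM with shCREBBP.572, and 0.141, 0.851 and 0.936 FPKM in scramble. It was called in none of the 6 comparisons, and its 0 was the only one of 432 member values. HIST1H4J came next, with a mean of 20.1 FPKM: it held 21.4, 18.9 and 13.3 FPKM with shCREBBP.1027, 13.7, 13.6 and 11.5 FPKM with shCREBBP.3753, 33.6, 18.0 and 31.8 FPKM with shCREBBP.572, and 23.6, 19.3 and 23.0 FPKM in scramble. It was lower than scramble with shCREBBP.3753, with a difference of -0.72 ± 0.22 (limma adjusted p = 0.0332), a call that ended without any library of its 2 groups but scramble replicate 2 (limma adjusted p of 0.066 to 0.112). Just outside were HIST1H1A, with a mean of 0.240 FPKM, and HIST2H2BF, with 0.205 FPKM. The 24 rows left out were 13 of HIST2, 8 of HIST1 and 3 of HIST3 names, and 7 of them were listed at 0 in all 12 libraries.

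Genes of DNA replication were also lower with shCREBBP.1027 and shCREBBP.3753. Of a list of 25 S-phase and DNA replication genes, 21 were lower and 0 higher than in scramble with shCREBBP.1027, 21 lower and 0 higher with shCREBBP.3753, and 3 lower and 2 higher with shCREBBP.572, with medians of -0.68, -0.70 and -0.07. Of all tested rows 20.2%, 11.6% and 9.42% were lower in these comparisons and 15.3%, 14.2% and 7.65% higher, and the counts with shCREBBP.572 were near those shares. The shCREBBP.1027 libraries had summed levels of 1162 to 1251 FPKM over the list, the shCREBBP.3753 libraries 1187 to 1359, the shCREBBP.572 libraries 1615 to 1740 and the scramble libraries 1508 to 1906 FPKM, a ratio of group means to scramble of 0.677, 0.713 and 0.942. Of the 25 rows 3 carry another gene's name as well, and that of PRIM1 with NACA, at 286 to 456 FPKM, held 21.8% to 32.8% of the sums. Over the 22 rows of 1 name the ratios were 0.595, 0.602 and 0.916. POLE, the leading-strand polymerase, held 8.67, 8.37 and 9.33 FPKM with shCREBBP.1027, 9.17, 10.1 and 9.63 FPKM with shCREBBP.3753, 19.9, 19.4 and 19.4 FPKM with shCREBBP.572 and 26.0, 22.8 and 20.2 FPKM in scramble. It had the smallest p of the list with shCREBBP.1027, -1.29 ± 0.09 (limma adjusted p = 2.2e-06). MCM2, a subunit of the replicative helicase, had it with shCREBBP.3753, -1.29 ± 0.07 (limma adjusted p = 1.8e-06). RRM2, which makes deoxynucleotides, was lower with shCREBBP.572 too, at -1.11 ± 0.08 (limma adjusted p = 6.7e-06), beside -1.10 with shCREBBP.1027 and -0.79 with shCREBBP.3753. The part of cell cycle distribution in the histone levels was not tested.

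Genes for making histone mRNA were called in shares not above those of all rows. Of 13 genes for histone transcription and 3' end processing, 1 was higher and 1 lower with shCREBBP.1027, 0 higher and 2 lower with shCREBBP.3753, and 0 higher and 1 lower with shCREBBP.572, with medians of 0.004, 0.05 and 0.09, where 35.5%, 25.8% and 17.1% of all tested rows were called in either direction. SLBP, which binds the stem-loop shown above, held 52.7, 60.4 and 55.0 FPKM with shCREBBP.1027, 55.4, 56.3 and 59.6 FPKM with shCREBBP.3753, 78.4, 81.1 and 94.1 FPKM with shCREBBP.572, and 65.8, 86.8 and 87.1 FPKM in scramble. It was lower with shCREBBP.1027 and shCREBBP.3753, at -0.50 ± 0.11 (limma adjusted p = 0.00522) and -0.47 ± 0.11 (limma adjusted p = 0.0106), and at 0.09 with shCREBBP.572, not called. NPAT, the coactivator of histone genes, was called with no hairpin, at -0.19, -0.09 and -0.08, though it was called lower with shCREBBP.1027 with array weights (-0.27, limma adjusted p = 0.0241). LSM11, of the U7 snRNP, was lower with shCREBBP.572, at -0.73 ± 0.12 (limma adjusted p = 0.00173). With shCREBBP.1027 LSM11 was not called, at -0.22. It was called lower there without scramble replicate 1 (-0.37, limma adjusted p = 0.00666) and with array weights (-0.34, limma adjusted p = 0.00524). ZNF473, a zinc finger protein of the U7 complex, was higher with shCREBBP.1027 by 0.57 ± 0.12 (limma adjusted p = 0.00364). The other lower gene with shCREBBP.3753 was UPF1, of mRNA decay, at -0.46, a call that ended without replicate 1 or 3 of that hairpin (limma adjusted p = 0.0759 and 0.101).

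**Figure D4:**
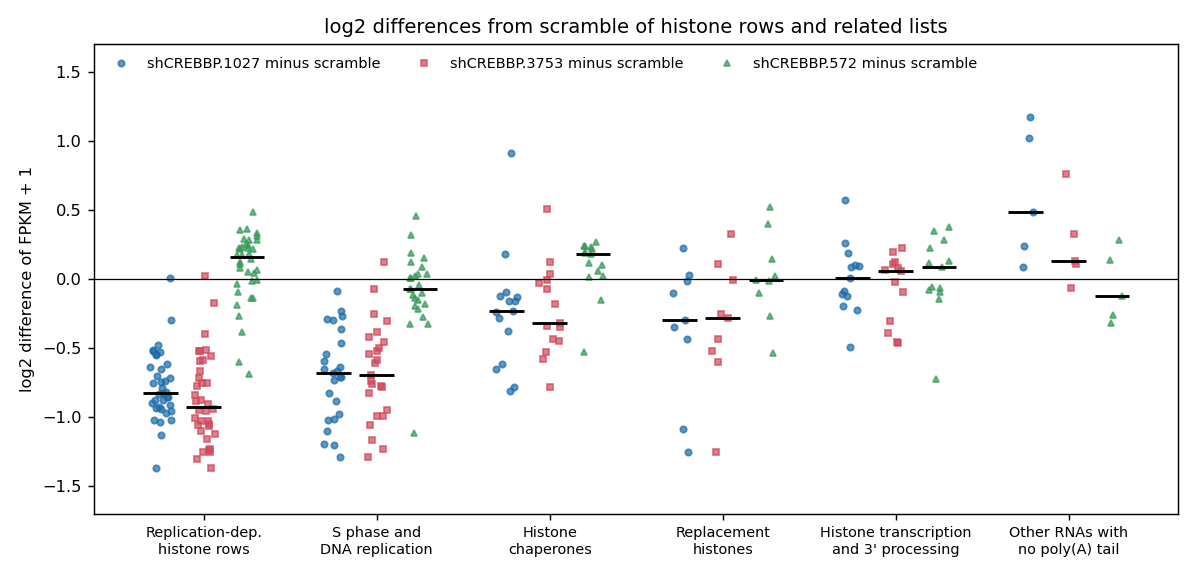
Differences from scramble on the log2(FPKM + 1) scale for the histone rows and for 5 lists of related genes; each point is a row or gene and each black bar a median, in shCREBBP.1027, in shCREBBP.3753 and in shCREBBP.572 from left to right in each list. The medians of the histone rows and of the S-phase list lie below 0 with the first 2 hairpins and near 0 with shCREBBP.572.

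Histone chaperones, which carry histones to DNA, were lower in 6 and higher in 1 of 15 genes with shCREBBP.1027, lower in 7 and higher in 1 with shCREBBP.3753, and lower in 1 and higher in 2 with shCREBBP.572, with medians of -0.23, -0.32 and 0.18. Of all tested rows 20.2%, 11.6% and 9.42% were lower and 15.3%, 14.2% and 7.65% higher. ASF1B, a chaperone of H3 and H4, was lower with shCREBBP.1027, at -0.78 ± 0.06 (limma adjusted p = 3.0e-06), while its paralog ASF1A was higher there, at 0.91. ASF1B was also lower with shCREBBP.3753, at -0.45 (limma adjusted p = 2.5e-04), and higher with shCREBBP.572, at 0.24 (limma adjusted p = 0.0132). The ASF1B call with shCREBBP.572 ended with 2 groups alone (limma adjusted p = 0.0875) and without replicate 1 of that hairpin (0.0519). CHAF1A, of the CAF-1 complex that deposits new H3 and H4, was lower with shCREBBP.3753, at -0.78 ± 0.08 (limma adjusted p = 6.4e-05). CHAF1A was lower with shCREBBP.1027 too, at -0.65 (limma adjusted p = 9.0e-05). HIRA, which deposits the replacement histone H3.3, was lower with shCREBBP.572, at -0.53 ± 0.09 (limma adjusted p = 0.00266). HIRA was lower with shCREBBP.3753 too, at -0.44 (limma adjusted p = 0.00562).

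Replacement histones, which are made throughout the cell cycle, mostly from polyadenylated mRNAs, were lower in 5 and higher in 0 of 9 tested genes with shCREBBP.1027, lower in 5 and higher in 0 with shCREBBP.3753, and lower in 1 and higher in 2 with shCREBBP.572, with medians of -0.30, -0.28 and -0.01, beside the same shares of all rows (20.2%, 11.6% and 9.42% lower, 15.3%, 14.2% and 7.65% higher). With 9 genes, 1 lower and 2 higher with shCREBBP.572 is close to those shares. H2AFX, whose stem-loop is printed above, held 39.3, 42.0 and 44.8 FPKM with shCREBBP.1027, 49.9, 43.3 and 34.0 FPKM with shCREBBP.3753, 73.1, 72.3 and 63.7 FPKM with shCREBBP.572, and 89.6, 106 and 109 FPKM in scramble. All hairpin libraries were below all scramble libraries, and the calls were -1.25 ± 0.13 (limma adjusted p = 3.3e-05), -1.25 ± 0.13 (limma adjusted p = 8.0e-05) and -0.53 ± 0.13 (limma adjusted p = 0.0152) in shCREBBP.1027, in shCREBBP.3753 and in shCREBBP.572. The H2AFX call with shCREBBP.572 ended without replicate 3 of that hairpin (limma adjusted p = 0.063) or scramble replicate 3 (0.0583). H3F3A, a gene of H3.3, was higher with shCREBBP.572 by 0.52 ± 0.10 (limma adjusted p = 0.00459), a call that ended with 2 groups alone (0.0524). With shCREBBP.1027 H3F3A was lower, at -0.30 (limma adjusted p = 0.0369). That call ended with no filter (limma adjusted p = 0.0549) and with 2 groups alone (0.133). It also ended without shCREBBP.1027 replicate 1 or 3 or scramble replicate 2 or 3 (0.0991 to 0.135).

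Among other RNAs that lack a poly(A) tail, none was called lower with a hairpin in the fit over all libraries. Of 10 such RNAs listed, 5 had rows: RMRP, RPPH1, TERC, SCARNA2 and SCARNA10. With shCREBBP.1027, 2 were higher and 0 lower, and with the other hairpins 0 were called (medians of 0.48, 0.13 and -0.13). With 35.5%, 25.8% and 17.1% of all tested rows called in either direction, these counts over 5 RNAs lie near those of all rows. TERC, the RNA of telomerase, held 597, 656 and 594 FPKM with shCREBBP.1027, 316, 292 and 261 FPKM with shCREBBP.3753, 283, 296 and 255 FPKM with shCREBBP.572, and 268, 294 and 354 FPKM in scramble and was higher with shCREBBP.1027 by 1.02 ± 0.11 (limma adjusted p = 5.1e-05). RPPH1, of ribonuclease P, was higher there at 1.17, a call that ended with no filter, with quantile normalization and with 2 groups alone (limma adjusted p of 0.222 to 0.855). RMRP had the smallest p with shCREBBP.3753, at 0.76 ± 0.37 (limma adjusted p = 0.163), and SCARNA2 with shCREBBP.572, at -0.32 ± 0.14 (limma adjusted p = 0.165), neither called. RMRP was called higher when rows had to reach a mean of 1 FPKM (limma adjusted p = 0.0362) and with array weights, and SCARNA2 lower without scramble replicate 1 (-0.50, limma adjusted p = 0.00391) and with array weights. With shCREBBP.1027 the 5 differences lay between 0.09 and 1.17.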

How the data were processed

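RNA was measured in 12 libraries of MD901 cells, 3 in each of 4 groups taken from the sample titles. The table deposited by the authors holds 1 FPKM value per assembled locus and library, made with CASAVA 1.8, TopHat2 and Cufflinks on hg19 per the submitters' processing notes. The table does not name the unit, which was read from its Cufflinks row identifiers and the range of its values. The number of reads is not given, 0 columns were left out, and a listed 0 can be a failed estimate. The label fields write shCREBBP.1027 also as shCREBBP.11027.

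Members and gene lists were chosen with earlier results of these data known. The 13327 rows that reached a mean of 0.5 FPKM were tested as log2(FPKM + 1) with limma 3.58.1 in R 4.3.3, with 1 mean per group, a variance trend, Benjamini-Hochberg adjustment over all rows and a threshold of 0.05. On simulated data for shCREBBP.3753 minus scramble (13327 rows), 95 of 100 changes of 1 and 49 of 100 changes of 0.5 (log2) were called, with 5 false calls. The simulated noise was independent between rows, with the same SD in all groups, and changes were put only in rows with a mean log2(FPKM + 1) above 3. It lacked the wider spread of scramble and shifts shared by rows of a library, so these rates need not hold for these libraries. Named rows were, by a fixed rule, the 2 highest single-name rows of each class, the 3 largest called falls and rises per hairpin, the largest called difference in each direction between hairpins, the rows at the edge of the level, and the list member with the smallest p against scramble; HIST1H3H, HIST1H4K, NPAT, UPF1, ASF1A and the levels of RPPH1 and of the 7-name row were added after their values were seen. Single rows also had two-sided exact permutation tests. Replicate numbers were not used to pair the libraries in the main fit. Deviations from group means correlated at -0.05 to 0.11 between same-numbered libraries (median 0.04), with 1 of 18 pairs over 0.1. Between libraries of different numbers they correlated at -0.18 to 0.12 (median -0.02). Alternatives were another pseudocount (0.1) and filter (1 or none), quantile and upper quartile scaling, a replicate block, array weights, 2 groups fitted alone and leaving out each library. Antisense transcripts and near-identical genes can share reads.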

Additional observations from a re-analysis of the deposited data

How the results depend on the processing

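The members called lower with shCREBBP.1027 (33) stayed within 22 (2 groups alone) and 34 (array weights), those with shCREBBP.3753 (33) within 23 (2 groups alone) and 35 (array weights), the members higher with shCREBBP.572 than with shCREBBP.1027 (33) within 30 and 35, and those higher than with shCREBBP.3753 (31) within 29 and 33. With no filter, 25 and 29 members were lower with shCREBBP.1027 and shCREBBP.3753. Leaving out 1 library gave 27 to 34 lower members with each of these hairpins, 32 to 34 higher members for shCREBBP.572 over shCREBBP.1027 and 29 to 31 over shCREBBP.3753. Small counts moved more. Members higher with shCREBBP.572 than in scramble (0) became 6 with quantile normalization, 5 with upper quartile scaling and 1 with a replicate block, and 0 to 1 without 1 library. Members lower with shCREBBP.572 than in scramble (2) became 1 with no filter, 4 with array weights and 0 with 2 groups alone, and 1 to 5 without 1 library (5 without scramble replicate 1, where HIST1H1C, HIST1H3G and HIST1H4I were also called). Members higher with shCREBBP.3753 than with shCREBBP.1027 (2) became 4 with array weights and with 2 groups alone, and 1 to 2 without 1 library. Members lower in that comparison (5) became 0 with no filter, 21 with quantile normalization, 11 with upper quartile scaling, 11 with array weights and 9 with 2 groups alone, and 0 to 5 without 1 library. For shCREBBP.572 against shCREBBP.3753, 1 member was lower with quantile normalization, with array weights and with 2 groups alone, against 0. With 2 groups alone, only the libraries of those 2 groups estimate the spread. Why the counts moved was not tested. The replicate block left 33, 33, 33 and 31 calls in the 4 large counts. Among the named rows it ended the call of HIST1H2AL between shCREBBP.3753 and shCREBBP.1027, and it called HIST1H4C higher with shCREBBP.572 than in scramble and HIST1H4J higher than with shCREBBP.1027; no other call of a named row changed with it. Over 20 named rows and 6 comparisons, 1535 of 1674 alternative values kept their call, 91 lost it and 48 gained it; no called value changed sign, and 35 uncalled values did. Quantile and upper quartile scaling moved the median of all rows by at most 0.0912 on the log2 scale. With quantile normalization the median of the members moved more in comparisons with shCREBBP.1027. It went from -0.82 to -0.58 against scramble, and from 0.88 to 0.67 for shCREBBP.572 over shCREBBP.1027. For shCREBBP.3753 against scramble it moved by 0.022. The number of reads is unknown, so counting error could not be set beside any value; HIST1H1T, HIST1H4J and HIST1H4K, the lowest rows, carry the largest SE.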
